A study of Mus musculus with 6 samples.

Results

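The 9 genes described here carry out or feed the urea cycle, the route by which liver turns ammonia into urea: Nags, Cps1, Otc, Slc25a15, Slc25a13, Ass1, Asl, Arg1 and Gls2. They were chosen by gene name among the non-control spots of the scanner files, and every probe of each gene was used. This gave 13 of the 56605 probes and 9 of the 37074 gene names on the array. RNA from 6 livers of nude mice, which have no thymus and so few mature T cells, was hybridised to Agilent 1-colour arrays, each liver to its own array. The sEV group (3 livers) received small extracellular vesicles, membrane particles shed by cells, prepared from the human colorectal cancer line SW620. Each mouse had 10 tail vein injections over 21 days, 1 every other day, and each dose held 20 µg of vesicles. The control group (3 livers) received sterile PBS on the same days. Each group had 5 mice, and the arrayed sEV mice were drawn at random. Neither the age nor the sex of the animals is given in the labels used here.

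In liver mitochondria, N-acetylglutamate made by Nags switches on Cps1, which joins ammonia and bicarbonate into carbamoyl phosphate. Otc passes that group to ornithine to give citrulline, and in the cytosol Ass1 and Asl convert citrulline and aspartate into arginine, which Arg1 splits into urea and ornithine. Slc25a15 carries ornithine back into mitochondria, Slc25a13 exports the aspartate, and the liver glutaminase Gls2 releases ammonia from glutamine near Cps1. The pathway is strongest in hepatocytes around the portal vein, whereas glutamine synthetase (Glul) takes up the remaining ammonia around the central vein. Transcription of the cycle's enzymes is known to follow glucagon, glucocorticoids and protein intake.

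The measurements rest on 60-base probes, and 5 of the 13 are printed because they separate the results that follow. The Cps1 and Arg1 probes are the only ones of their genes. The brighter and dimmer Asl probes gave different answers, and the dimmer Gls2 probe gave the same answer as the brighter one. Sequences run 5′ to 3′ as in the scanner files, in lower case throughout, and none shares more than 16 consecutive bases with the probe of another gene.
Cps1: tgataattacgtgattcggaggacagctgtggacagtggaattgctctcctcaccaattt
Asl brighter: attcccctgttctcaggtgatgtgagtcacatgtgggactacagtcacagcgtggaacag
Asl dimmer: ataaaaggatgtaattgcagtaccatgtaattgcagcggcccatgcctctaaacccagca
Arg1: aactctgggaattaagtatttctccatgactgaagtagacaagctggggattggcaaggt
Gls2 dimmer: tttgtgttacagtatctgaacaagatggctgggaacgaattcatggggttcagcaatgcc
The files place the Cps1 probe at chr1:67276029-67276088 (mm9) and the Arg1 probe at chr10:24636194-24636253. The brighter Asl probe spans chr5:130487513-130487736, an interval of 224 bases and so longer than the probe, as for a probe across a splice junction. The dimmer Asl probe lies at chr5:130498273-130498332, an unbroken 60 bases of the same locus, and its listed transcript differs from that of the brighter one. Alone among the 13 probes, it has no listed accession that matched a RefSeq gene symbol. The dimmer Gls2 probe also spans more than its length, 279 bases at chr10:127640909-127641187. The Ass1 probe is also listed for Gm5424, a near-identical copy of Ass1, so its signal cannot be assigned to Ass1 alone.

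In sEV livers 7 of the genes rose, by 1.47 to 2.22 times, and Otc and Slc25a13 did not pass the test. The rises were those of Asl, Gls2, Slc25a15, Cps1, Ass1, Arg1 and Nags, from largest to smallest. In limma's test, adjusted by Benjamini-Hochberg over all 19446 genes tested, 7 of 9 were called higher at 0.05 and 0 lower. Of all genes tested, 8.96% were called higher and 7.99% lower. The 3 sEV livers lay above the 3 control livers, without overlap, for these 7 genes, and 22.6% of all genes tested showed that pattern. The median log2 fold change was 0.80 over the 9 genes and 0.03 over all genes tested. All 13 probes were well above background on 6 of 6 arrays, so the filter on dim probes removed none of them. The labels give 1 liver per array, so the p-values measure the spread between livers. Bulk RNA cannot tell fewer cells of a type from less RNA per cell.

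**Figure D1:**
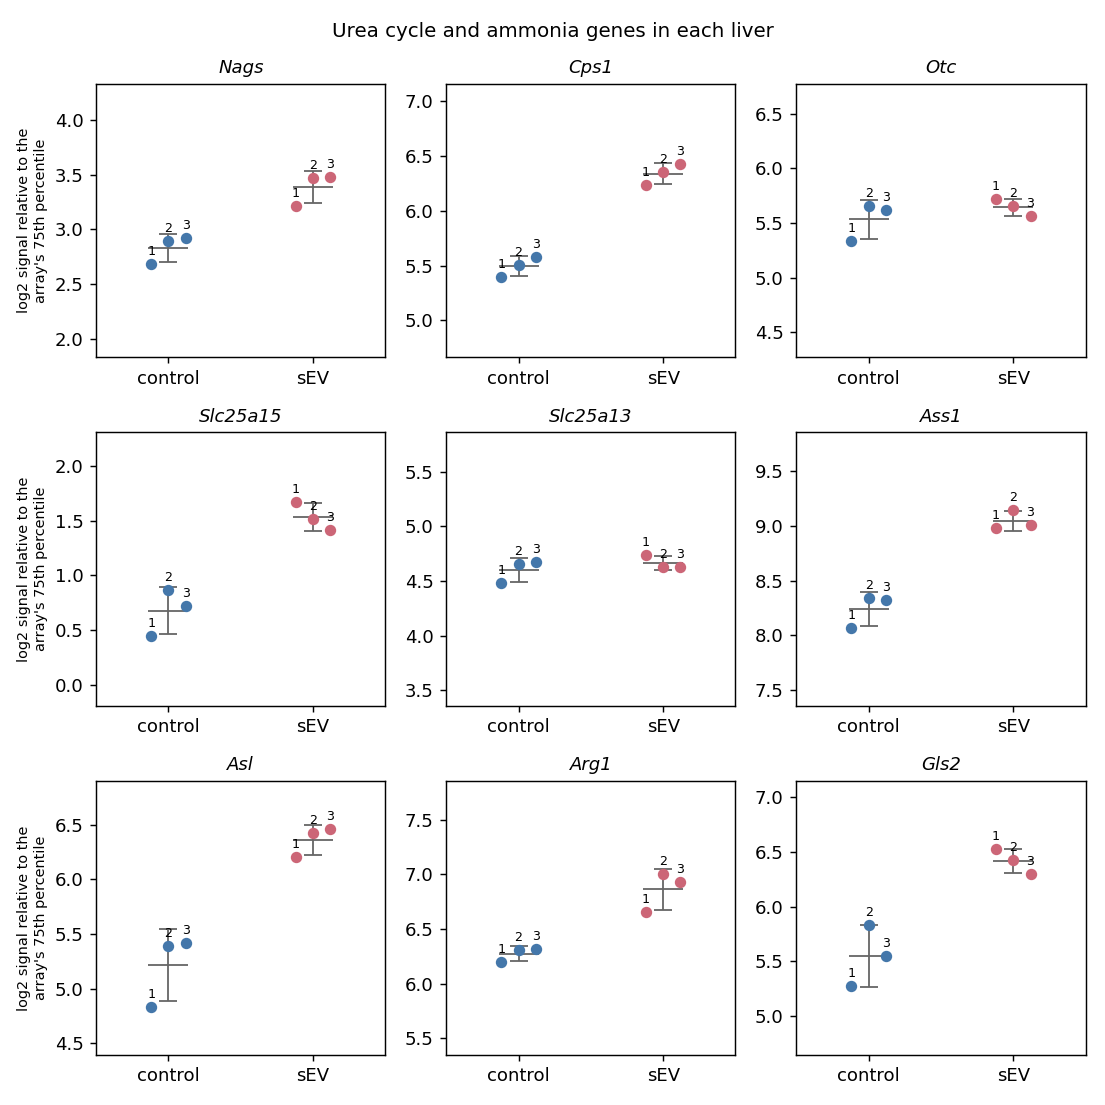
Log2 signal relative to the array's 75th percentile (y axis) in each of the 3 control and 3 sEV livers (x axis, numbered points) for the probe that stands for each gene; all panels span the same height on their own range, and lines give mean ± SD. The sEV points lie above all control points in every panel except those of Otc and Slc25a13.

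Values are log2 signals after subtraction of the array's 75th percentile, so a value of 0 equals that percentile, and levels of different probes are not comparable. Nags, the enzyme that makes the activator of the cycle, read 2.69, 2.89 and 2.92 in control livers 1 to 3 and 3.22, 3.47 and 3.48 in sEV livers 1 to 3. Every sEV liver exceeded every control liver. The log2 fold change was 0.56 ± 0.11 (SE, 3 livers per group), a 1.47-fold rise (limma adjusted p = 0.0249) and the smallest of the 7.

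Cps1, the entry enzyme that fixes ammonia, read 5.40, 5.50 and 5.58 in the control livers and 6.24, 6.36 and 6.43 in the sEV livers. The groups were far apart relative to their spread, with an SD of 0.09 in control and 0.10 in sEV livers. Its log2 fold change of 0.85 ± 0.09 (SE, 3 livers per group) was a 1.80-fold rise (limma adjusted p = 0.0045), with the largest moderated t of the 9 genes. The 95% interval of the fold ran from 1.54 to 2.10.

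Gls2, the glutaminase that supplies ammonia, read 5.27, 5.83 and 5.55 in the control livers and 6.52, 6.43 and 6.30 in the sEV livers. The groups did not overlap, although the control livers were spread more widely than those for Cps1. The rise was 1.82-fold, at a log2 fold change of 0.87 ± 0.16 (limma adjusted p = 0.0185). Its dimmer probe, printed above, read 0.77, 1.44 and 1.09 in the control and 2.15, 2.27 and 2.12 in the sEV livers. In the fit over all 28760 probes it rose by 1.08 ± 0.17 on the log2 scale (limma adjusted p = 0.0146), so both Gls2 probes were called in the same direction. Of all probes in that fit, 7.52% were called higher.

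Otc, the mitochondrial enzyme that forms citrulline and the next step after Cps1, read 5.33, 5.66 and 5.62 in the control livers and 5.72, 5.66 and 5.56 in the sEV livers. The groups overlapped: only sEV liver 1 lay above all the controls. The log2 fold change was 0.11 ± 0.11 (limma adjusted p = 0.539), with a 95% interval from -0.16 to 0.38, or 0.893 to 1.30 as a fold. The dimmer Otc probe gave 0.13 ± 0.11 (limma adjusted p = 0.445). The interval leaves room for a rise of up to 1.30-fold. It overlaps the fold intervals of Nags (1.21 to 1.78) and Arg1 (1.24 to 1.83), but not those of the other genes that passed. No test compared Otc with these genes.

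Cps1 and Otc were also set side by side within each array, a difference that does not depend on scaling between arrays. The pair was chosen after its values were seen, so the difference is a description and carries no test. Log2 Cps1 minus log2 Otc was 0.07, -0.15 and -0.04 in the control livers and 0.52, 0.70 and 0.86 in the sEV livers. The difference moved by 0.74, and that of Cps1 and Slc25a13 by 0.78.

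Of the mitochondrial carriers, Slc25a15 passed the test and Slc25a13 did not. Slc25a15, the ornithine carrier, read 0.44, 0.87 and 0.72 in the control livers and 1.67, 1.52 and 1.41 in the sEV livers. There was a clear gap between the groups, and the rise was 1.81-fold, at a log2 fold change of 0.86 ± 0.13 (limma adjusted p = 0.0125). Slc25a13, the aspartate-glutamate carrier also called citrin, read 4.48, 4.66 and 4.67 in the control livers and 4.74, 4.63 and 4.63 in the sEV livers. Its groups overlapped, with a log2 fold change of 0.06 ± 0.09 (limma adjusted p = 0.671) and a 95% interval of the fold from 0.896 to 1.22. The dimmer Slc25a13 probe gave -0.03 ± 0.09 (limma adjusted p = 0.842), opposite in sign to the brighter, and neither passed. No test compared the carriers with each other.

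Among the cytosolic enzymes, Ass1, which joins citrulline to aspartate, read 8.06, 8.34 and 8.33 in the control livers and 8.98, 9.15 and 9.01 in the sEV livers. The lowest sEV liver was 0.64 above the highest control liver on the log2 scale. The rise was 1.75-fold, at a log2 fold change of 0.80 ± 0.11 (limma adjusted p = 0.00795), and 0.54 under quantile normalization or in the deposited value table, where it also passed.

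Asl, which splits argininosuccinate into arginine and fumarate, read 4.84, 5.39 and 5.42 in the control livers and 6.21, 6.43 and 6.46 in the sEV livers on its brighter probe. This was the widest gap between groups of the 9 genes, 0.79 from the highest control to the lowest sEV liver. The rise was 2.22-fold, at a log2 fold change of 1.15 ± 0.18 (limma adjusted p = 0.0119). The dimmer Asl probe read -0.51, -0.24 and 0.59 in the control and 1.22, -1.22 and -0.36 in the sEV livers, with no separation of the groups. Its log2 fold change was -0.06 ± 0.62 (limma adjusted p = 0.958), and its SE is the largest of the 13 probes. The 2 Asl probes therefore disagreed, and the mean of both gave 0.54 (limma adjusted p = 0.297), which does not pass. Before scaling, the dimmer probe's signal was 169 to 974, against 14268 to 35561 for the brighter. Whether both read the same transcript was not tested. The rise of Asl is a statement about the brighter probe only.

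Arg1, the arginase that releases urea, read 6.20, 6.31 and 6.32 in the control livers and 6.65, 7.01 and 6.93 in the sEV livers. The groups did not overlap, and sEV liver 1 stood closest to the controls. The rise was 1.51-fold, at a log2 fold change of 0.59 ± 0.12 (limma adjusted p = 0.0224). Macrophages also carry Arg1, and among markers of M2-type macrophages 1 of 5 tested was called higher, Chil3 at 2.51 ± 0.43 (limma adjusted p = 0.0156), while Retnla did not pass the filter on dim probes. The summed scaled signal of that list was 28.7 to 32.6 in control and 27.9 to 34.6 in sEV livers, so the ranges overlapped. The part of these cells in the Arg1 value was not tested.

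**Figure D2:**
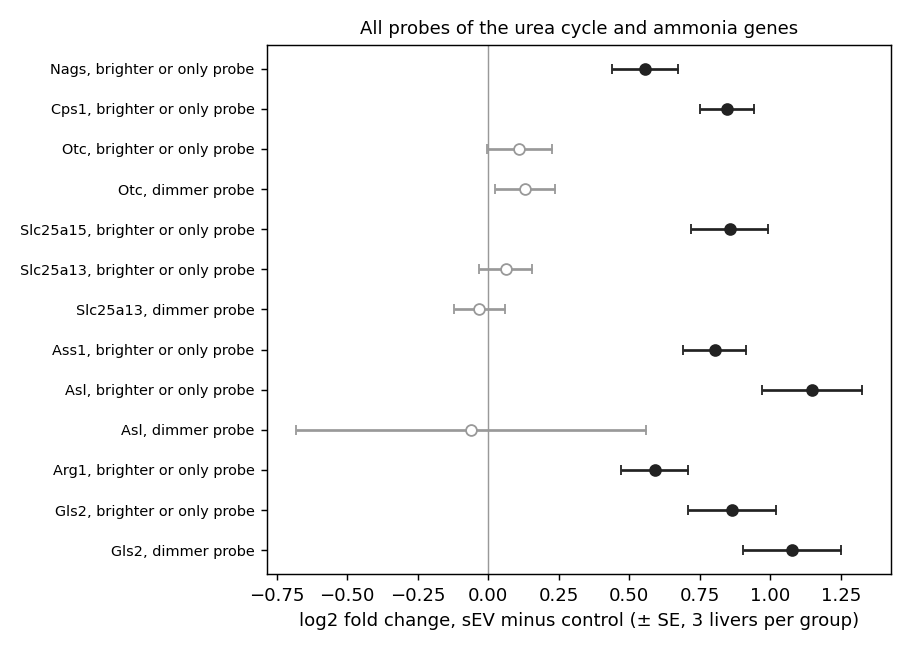
Log2 fold change, sEV minus control (x axis, ± SE, 3 livers per group), for each of the 13 probes (y axis) in the fit over all probes; filled points passed an adjusted p of 0.05. Both Gls2 probes are filled, at 0.87 and 1.08, while the Asl probes are apart, at 1.15 and -0.06.

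Position on the slide moved with the groups in part, and it bears on how many of the rises pass. All 6 arrays were on 1 slide with 1 scan. Slide row 1 held the 3 control arrays and sEV array 1, and row 2 held sEV arrays 2 and 3. Log2 Cps1 minus log2 Otc was 0.52 in sEV liver 1, and 0.70 and 0.86 in sEV livers 2 and 3. When slide row was a block in the fit, the contrast rested on sEV array 1 against the controls. Cps1 alone of the 9 genes then passed, at 0.74 (limma adjusted p = 0.0441). In that fit 242 of all 19446 genes (1.24%) were called higher and 480 lower. Slc25a15 was at 0.99 (adjusted p = 0.0581), Ass1 at 0.74 (0.0762), Gls2 at 0.97 (0.0880) and Asl at 0.99 (0.104). Arg1 and Nags had smaller changes, both 0.38, with adjusted p of 0.152 and 0.190. The sign of each change with the block is that of sEV liver 1 minus the control mean. For the 7 genes it was set by the separation of the groups given above, so it is no further check. Otc (0.18) and Slc25a13 (0.14) did not pass with the block. Within row 1 alone the sEV group is a single array, assumed to vary like the 3 controls, which alone supply the spread. The log2 fold changes were the same and 0 of the 9 genes passed, with Cps1 at an adjusted p of 0.0739 and 0.895% of all genes called higher.

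Leaving out single livers divided the 7 genes. Cps1, Ass1, Asl and Slc25a15 passed in 6 of 6 such fits, in which 601 to 1534 of the 19446 genes tested were called higher. Arg1 and Nags passed only without sEV liver 1, the sEV liver with their lowest value, at limma adjusted p of 0.0153 and 0.0248. In the other 5 fits the adjusted p ran from 0.0606 to 0.0732 for Arg1 and from 0.0572 to 0.0763 for Nags. Gls2 missed the threshold without control liver 3 (adjusted p = 0.0540) and without sEV liver 2 (0.0528). Control liver 1 had the lowest control value for 9 of 9 genes under the main scaling, and for 7 of 9 under quantile normalization. It also had the highest 75th percentile before scaling, 500 against 434 to 483 in the other controls and 391 to 418 in sEV livers. Without it the fold changes were smaller for Asl, at 0.96, and Gls2, at 0.72, and both passed, at limma adjusted p of 0.0179 and 0.0414.

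**Figure D3:**
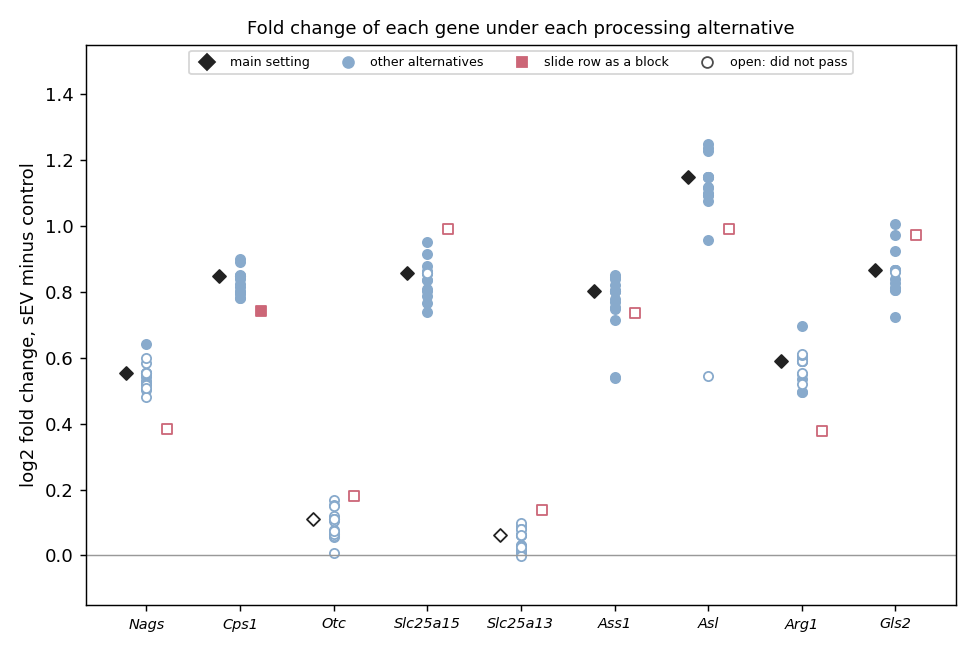
Log2 fold change, sEV minus control (y axis), of each gene (x axis) in the main setting (diamonds), with slide row as a block (squares) and in the other alternatives (circles), without the fit within row 1, whose values equal the squares; open symbols did not pass an adjusted p of 0.05. The square of Cps1, at 0.74, is the only filled square.

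The wider handling of nitrogen was described with 6 lists of other genes, which held 94 tested genes once each gene was counted once. Of these, 23 were called higher and 6 lower, with a median log2 fold change of 0.16. Over all genes tested, 8.96% were called higher and 7.99% lower, the background for this and each list below. The share called was highest in the list of enzymes that degrade amino acids and free their nitrogen, where 9 of 19 rose, 0 fell and the median was 0.26. Tat, the tyrosine aminotransferase, rose by 1.20 ± 0.12 (limma adjusted p = 0.00326). Its values were 6.45, 6.40 and 6.68 in the control and 7.86, 7.58 and 7.67 in the sEV livers, without overlap. Cth, which cleaves cystathionine, rose by 1.12 ± 0.11 (limma adjusted p = 0.00338). Sds, the serine dehydratase that releases ammonia directly, rose by 1.52 ± 0.16 (limma adjusted p = 0.00394), from 4.05, 4.60 and 4.53 to 6.01, 5.82 and 5.92. Tdo2, which opens the tryptophan ring, rose by 0.80 ± 0.08 (limma adjusted p = 0.00412). These 4 genes also passed in the fit blocked by slide row.

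Among genes that link ammonia to glutamine and glutamate, 4 of 15 tested rose and 0 fell, with a median of 0.28. Slc7a2, a transporter of arginine and ornithine, rose by 1.16 ± 0.14 (limma adjusted p = 0.00526). The amino acid transporter Slc38a4 rose by 0.67 ± 0.09 (limma adjusted p = 0.00694), and both passed in the blocked fit. Slc1a4 rose by 1.14 ± 0.21 (0.0207), and the ammonium transporter Rhbg by 0.58 ± 0.15 (0.0487), which passed in 0 of 6 fits that left out a liver and not under median scaling (0.0820). Slc1a4 passed in 2 of those 6. Glul, which ties up ammonia as glutamine, was at 0.18 ± 0.15 (limma adjusted p = 0.443), and Glud1, the glutamate dehydrogenase, at 0.09 ± 0.08 (0.483).

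On the side of the cycle that supplies aspartate and takes back fumarate, 3 of 12 rose and 0 fell, with a median of 0.25. Got1, the cytosolic aspartate aminotransferase, rose by 1.02 ± 0.14 (limma adjusted p = 0.00915), from 5.81, 6.25 and 5.92 to 7.19, 6.91 and 6.95. It passed with slide row as a block and in 6 of 6 fits without a liver. The alanine aminotransferases Gpt2, at 0.63 ± 0.13 (0.0244), and Gpt, at 0.44 ± 0.11 (0.0418), passed in 1 and 0 of those 6. Gpt was at 0.26 under quantile normalization (limma adjusted p = 0.0884) and in the deposited value table (0.0889), and missed the threshold under median scaling (0.107). Neither passed with slide row as a block.

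Among genes of the other fates of ornithine and arginine, 1 of 18 tested rose and 3 fell, with a median of -0.09. Of all genes tested 8.96% rose and 7.99% fell in the main fit. With slide row as a block the list had 0 higher and 1 lower, against 242 and 480 of the 19446 genes tested. Prodh, which oxidises proline, rose by 1.08 ± 0.17 (limma adjusted p = 0.0135). Gatm, which starts creatine synthesis from arginine, fell by 0.71 ± 0.14 (0.0224), and Ddah2, which degrades methylated arginine, fell by 0.69 ± 0.14 (0.0243). Odc1, the ornithine decarboxylase of polyamine synthesis, fell by 0.50 ± 0.12 (0.0422). Gatm and Ddah2 each passed in 2 of 6 fits without a liver, and Odc1 in 0 of 6. With slide row as a block Ddah2 passed (0.0176), and Prodh (0.0792), Gatm (0.153) and Odc1 (0.116) did not. Odc1 also missed the threshold as the mean over its probes (0.0915). Of the urea and water channels, 0 of 5 passed. Aqp8 was at -0.11 ± 0.19 (limma adjusted p = 0.714) and Aqp9, which conducts urea and glycerol, at 0.03 ± 0.09 (0.860). The sign of both turned under some settings, given in the closing section. The probes of Aqp9 disagreed: their mean rose by 1.34 (limma adjusted p = 0.00934), so its value describes the brightest probe only.

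The list of regulators and target genes had 7 of 26 higher and 3 lower, with a median of 0.15. The target genes Tat, Igfbp1 and Pck1 are 3 of the 7, and the others are Cebpb, Insr, Hnf4a and Cebpd. Insr was at 0.55 ± 0.10 (limma adjusted p = 0.0176), Hnf4a at 0.54 ± 0.10 (0.0195) and Cebpd at 0.74 ± 0.17 (0.0309). The 3 that fell were the transcription factor genes Ppara, at -0.58 ± 0.10 (limma adjusted p = 0.0172), Foxa1, at -0.73 ± 0.13 (0.0189), and Nfyb, at -0.51 ± 0.10 (0.0208). The other 16 did not pass. Among these, the glucagon receptor gene Gcgr was at 0.07 ± 0.10 (limma adjusted p = 0.675). The glucocorticoid receptor gene Nr3c1 was at -0.32 ± 0.10 (0.0817). Igfbp1 rose by 1.84 ± 0.19 (limma adjusted p = 0.00389), and Pck1, the gluconeogenic enzyme, by 0.79 ± 0.09 (0.00451). Both passed with slide row as a block. Cebpb, a transcription factor of the acute phase and of gluconeogenesis, rose by 0.69 ± 0.10 (limma adjusted p = 0.00908) and did not pass with the block (0.0797). With the block 3 of the 26 were called higher and 0 lower, against 242 and 480 of the 19446 genes tested.

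**Figure D4:**
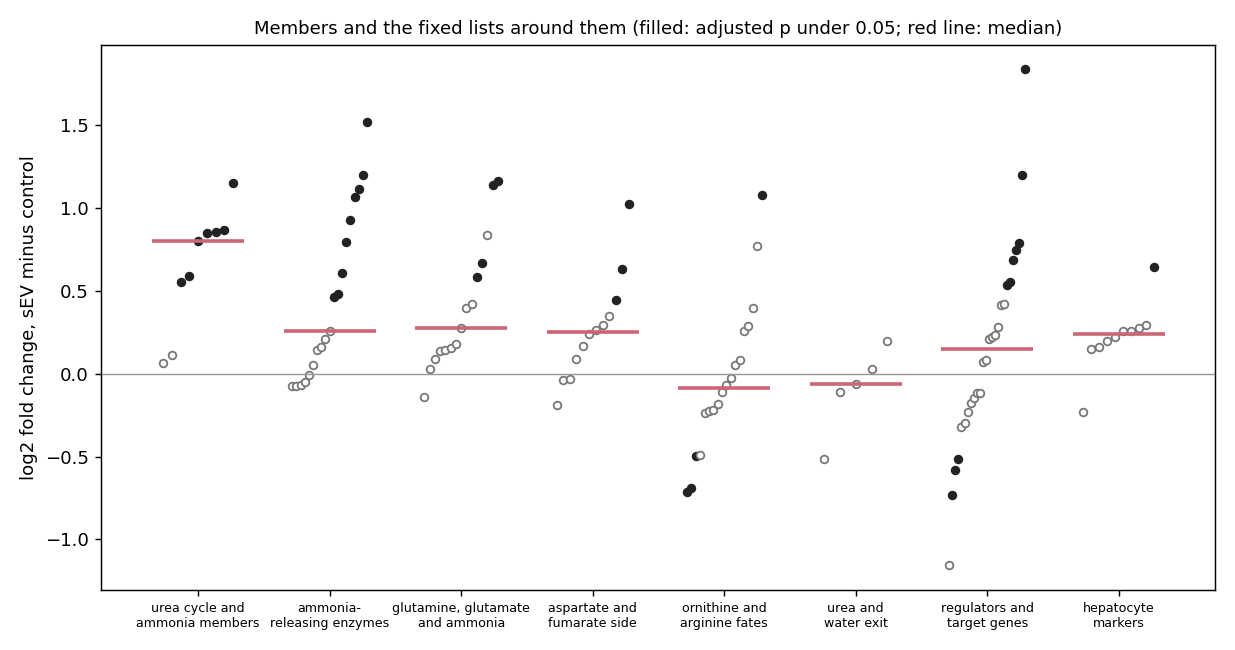
Log2 fold change, sEV minus control (y axis), of each tested gene in the urea cycle set, 6 further nitrogen lists and the hepatocyte markers (x axis); filled points passed an adjusted p of 0.05 and red lines give medians. The median is 0.80 for the urea cycle set and 0.24 for the hepatocyte markers.

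Markers of the cells a liver piece can hold were read beside these genes. Of 10 hepatocyte markers tested, 1 was called higher, Hpx at 0.64 ± 0.09 (limma adjusted p = 0.00823; 0.36 under quantile normalization), and 0 lower. Alb, which also marks hepatocytes, was at 0.15 ± 0.15 (limma adjusted p = 0.512). The summed scaled signal of the hepatocyte list was 4681 to 5223 in control and 5200 to 6284 in sEV livers. Only sEV liver 1, at 5200, lay within the control range. Macrophage and Kupffer cell markers had 4 of 10 higher, with sums of 116 to 150 against 167 to 184. Among them were C1qa at 0.74 ± 0.13 (limma adjusted p = 0.0176) and Vsig4 at 0.59 ± 0.11 (0.0205). Granulocyte markers had 5 of 9 higher, with sums of 102 to 121 against 138 to 151. These included Ctsg at 2.09 ± 0.25 (limma adjusted p = 0.00573) and Elane at 1.32 ± 0.17 (0.00665). The granulocyte markers that did not pass were Csf3r at -0.89, Ly6g at -0.07, Cxcr2 at 0.84 and Retnlg at 0.57. Endothelial cells, which also carry Ass1, had 0 of 10 markers called and sums of 38.7 to 54.7 against 38.1 to 48.2. Erythroid markers had 3 of 8 lower, among them Ahsp and Slc4a1, with sums of 1245 to 1359 in control livers. The sEV livers had sums of 1092, 406 and 1349, so that sEV liver 2 stood apart, and it also had the most flagged spots, 171. Stellate cell markers had 4 of 8 lower, with Lrat falling by 1.09 ± 0.17 (0.0117) and Col3a1 by 1.89 ± 0.28 (0.0108), and sums of 74.5 to 106 against 54.5 to 75.7. Cholangiocyte markers had 0 of 5 called, with Cftr well above background on no array, and T, NK and B cell markers had 2 of 5 higher, Nkg7 among them, and 2 lower, Ms4a1 among them, which was well above background on 0 of the 3 sEV arrays. Kidney tubule and intestine, which also carry urea cycle enzymes, had 1 of 6 markers tested, Fabp2, which was 2.15-fold lower. Fabp2 was bright, at 6.15 to 6.36 in control and 4.94 to 5.31 in sEV livers. Umod, Slc34a1, Lrp2, Vil1 and Cdx2 did not pass the filter on dim probes, and Slc34a1 and Umod were well above background on no array. Fabp2 without the others cannot show that kidney or intestine was present. With slide row as a block, 0 hepatocyte, 0 macrophage, 0 granulocyte and 0 stellate cell markers were called. In that fit 1 erythroid marker, 2 T, NK and B cell markers and Fabp2 were called lower. Of all 19446 genes it called 242 higher and 480 lower. The part of these cell types in the values of the urea cycle genes was not tested.

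The promoters of Ass1, which rose, and Otc, which did not pass, are shown because they sit on either side of the split in the cycle. RefSeq's promoter table (GRCm38.p6) held 6 promoters for 5 of the 9 genes: Ass1, Nags, Otc, Slc25a13 and Slc25a15. The 250 bases before each start site are printed 5′ to 3′ on the sense strand, chr2:31470020-31470269 for Ass1 and chrX:10252055-10252304 for Otc. Capitals mark the motif found.
Ass1 promoter: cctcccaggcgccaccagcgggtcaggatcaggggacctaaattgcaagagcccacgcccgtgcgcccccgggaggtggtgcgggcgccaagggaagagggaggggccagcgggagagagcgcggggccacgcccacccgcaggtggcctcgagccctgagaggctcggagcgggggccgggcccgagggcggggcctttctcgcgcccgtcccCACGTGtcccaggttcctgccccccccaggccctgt
Otc promoter: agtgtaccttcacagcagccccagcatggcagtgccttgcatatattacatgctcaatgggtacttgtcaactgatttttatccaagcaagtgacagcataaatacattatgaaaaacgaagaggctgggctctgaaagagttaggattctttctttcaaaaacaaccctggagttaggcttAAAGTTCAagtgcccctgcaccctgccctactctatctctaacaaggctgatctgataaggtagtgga
In all, 6 motifs were searched on both strands of 300-base windows that end 50 bases past the start site. They were TATAAA (a core promoter box), CACGTG (E-box), AAAGTNCA (an HNF4 element), TTGCNNAA (C/EBP), TTCNNNGAA (STAT) and TGACGTCA (CRE). They occur in 13.6%, 7.15%, 4.12%, 10.8%, 8.3% and 1.79% of the 32851 promoters in the table, in that order, and do not overlap in the 6 promoters. The E-box lies at -36 in Ass1 and was also found for Slc25a13, which did not pass, and in 1 of 2 promoters of Slc25a15, which rose. The HNF4 letters were found in Otc alone, at -68, and none of the 6 motifs in the Nags promoter. The Ass1 stretch is 75.6% G and C and that of Otc 43.6%. A match describes letters and not a bound site.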

How the data were processed

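Per the labels' protocols, Cy3-labelled RNA was hybridised to 1-colour arrays, and Agilent Feature Extraction 10.7.1.1 extracted the signals, per the submitters' processing notes. Per the file headers, the processed signal deposited by the authors is an intensity with background subtracted within each array, and probe positions are on mm9. The deposited value table holds log2 values whose columns all have a median of 4.50. Across probes it correlated with the scanner signals at 0.9995 or more. Its scaling is not given in the sources.

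Here each array's processed signal was put on the log2 scale and its 75th percentile subtracted. Control spots and 91 to 171 flagged spots per array were dropped, and repeat spots of a probe were averaged. Between 49.9% and 54.7% of spots were well above background, and the number of arrays limits the precision. A probe was kept if well above background on 3 or more of 6 arrays, and the brightest stood for its gene name. limma 3.58.1 (R 4.3.3) gave the test between groups, by lmFit and eBayes without covariates. P-values were adjusted by Benjamini-Hochberg over 19446 genes, with 0.05 as the threshold. Of these genes 3295 passed, 1742 of them higher. Each log2 fold change is given ± its SE.

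The genes and lists were chosen with earlier results of these data known. All 9 genes of the set are named, of each other list up to 4 genes that passed, by size of moderated t, otherwise the 2 brightest, and of each marker list at most 2. Glul, Glud1, Alb, Ppara, Foxa1, Nfyb, Insr, Hnf4a, Cebpd, Gcgr, Nr3c1, Csf3r, Ly6g, Cxcr2 and Retnlg were named outside that rule, after their values were seen. Group and number came from treatment label and title. Among control and sEV livers that share a number, deviations correlated at 0.02, 0.16 and 0.02, so numbers were not taken as pairs. Figures were drawn with matplotlib 3.10.9.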

Additional observations from a re-analysis of the deposited data

How the results depend on the processing

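Of the 9 urea cycle genes, 7 were called higher (limma). The count was 3 with no filter on dim probes, 1 with slide row as a block, 0 within slide row 1 (1 sEV array, with the spread of the controls alone) and 4 to 7 when 1 liver was left out. Across all genes 3295 passed, against 791 with no filter, 722 with slide row as a block (614 of them shared, in the same direction), 607 within row 1, 2155 with the replicate block and 1318 to 2823 without 1 liver. The replicate block left 7 of 9 urea cycle genes called. Of all genes 1742 were called higher, against 313 with no filter and 242 with slide row as a block. That number was 1069 with the replicate block and 601 to 1534 without 1 liver. The fit with no filter also took in genes with dim probes only, among the 37074 gene names on the array. Of the other nitrogen genes 23 were called higher, against 11 with no filter, 9 with slide row, 4 within row 1 and 14 to 17 without 1 liver. With no filter, Arg1 (adjusted p = 0.0930), Gls2 (0.0729), Nags (0.103) and Slc25a15 (0.0554) were lost. Under normexp background correction, median scaling, quantile normalization, the stricter filter, an intensity trend, array weights and the deposited table, all 7 passed. Among calls over all genes, 52.9% were higher, and 41.2% under median scaling. The sign turned for 3 values near 0. Slc25a13 ran from -0.00072 (without control liver 1) to 0.097 when 1 liver was left out. Aqp8 was at 0.068 with array weights and ran from -0.30 to 0.044 (without control liver 1) when 1 liver was left out. Aqp9 was at -0.00388 with normexp, -0.027 with median scaling, -0.032 with quantile normalization or the deposited table and -0.00796 with array weights, and ran from -0.033 (without sEV liver 1) to 0.059 when 1 liver was left out. Averaging the probes of a gene moved Aqp9 to 1.34, Asl to 0.54 and Chpt1, given below, from 0.86 to 0.58. The cause of these changes was not tested. Of the 37 called genes that the naming rule takes outside the set, 24 passed in every fit without a liver and 14 with slide row as a block.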

Other observations

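Zonation genes of the liver lobule were read beside the cycle. Of 12 periportal genes tested, 5 rose and 0 fell, with a median log2 fold change of 0.55. The list holds Gls2, Sds and Pck1, given above, and Cyp2f2, a periportal cytochrome at 0.60 ± 0.10 (limma adjusted p = 0.0131) and at 0.38 under quantile normalization. Of 12 pericentral genes, 3 rose and 1 fell, with a median of 0.25. Cyp7a1, the rate-limiting enzyme of bile acid synthesis, rose by 1.79 ± 0.44 (limma adjusted p = 0.0415), from -0.40, 0.52 and 1.34 to 2.53, 2.50 and 1.81, and passed in 1 of 6 fits without a liver and not with array weights (0.0737). Lect2, a secreted hepatocyte protein, fell by 0.62 ± 0.09 (0.00919). With slide row as a block, 3 periportal and 0 pericentral genes were called higher, against 1.24% of all genes tested. The difference between the zones was not tested.

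The 3 genes whose log2 values, centred on their own mean over the 6 livers, lay closest to those of Cps1 were Spns3, Chpt1 and Itih3. Their root mean square differences from Cps1 were 0.0509, 0.0544 and 0.0566. Spns3 is a sphingolipid transporter family gene, Chpt1 a choline phosphotransferase and Itih3 a plasma inter-alpha-trypsin inhibitor chain. Their log2 fold changes were 0.86, 0.86 and 0.88, with Spns3 at 0.39 after normexp background correction and Chpt1 at 0.58 as the mean over its probes. Spns3 was dim, with a mean of -4.26 in control and -3.40 in sEV livers. It was well above background on 2 of the 3 control arrays. The choice of these 3 genes is a ranking over all genes tested and carries no test.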
